A study of Mus musculus with 30 samples.

Results

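The genes described here encode the proteins of the cytosolic ribosome. They were chosen by symbol among the annotated protein-coding mouse genes: Rpl or Rps followed by a number and, in some, an a or x, plus Rplp0, Rplp1, Rplp2 and Rpsa. The rule took no pseudogene and none of the Rps6k kinases, and it gave 76 genes of the 50686 in the count tables, 46 of the large subunit and 30 of the small subunit. Fau, Rack1 and Rps3a1 also encode ribosomal proteins but carry other names, and they are given apart.

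RNA of mouse thyroid glands was sequenced in 30 libraries after poly(A) selection, in 10 groups of 3 C57BL/6 mice. FAD4T mice, whose name the labels do not spell out, were set beside wild-type mice in each sex at ages of 2 and 8 months, which makes 8 groups. The design text lists an ageing pair apart, wild-type males of 2 and of 18 months. Titles number the 2-month wild-type males from 1 to 6. Here 1 to 3 served as controls for FAD4T males, while 4 to 6 served as the young animals of the ageing pair, and the labels give neither a batch nor a date for either set. What drives the FAD4T allele, and whether animals were pooled, is not given in the sources used here. P-values below therefore measure only the spread between these samples.

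The libraries held 14083958 to 20256049 counts in genes, of which the 76 genes took 1.62 to 3.85%. The lowest count of any of them in a library was 15 to 74, and all 76 passed the filter on low counts in each fit. Thyroid identity was checked with 10 follicular cell markers. Thyroglobulin (Tg) took 4.64 to 27.0% of counts, Pax8 reached 319 to 660 CPM (counts scaled by library size) and Nkx2-1 240 to 668 CPM. Slc26a4 was the exception, at 0 to 2.04 CPM, and at 0 in 2 libraries.

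A ribosome joins a large subunit, which forms peptide bonds, to a small subunit, which reads the messenger RNA. Its proteins are needed in nearly equal numbers, and mammalian cells coordinate their output largely at translation: ribosomal protein mRNAs start with a tract of pyrimidines, called a TOP motif, through which the mTOR pathway and the protein Larp1 set how far they are translated. Most are short, highly expressed housekeeping mRNAs, with many processed pseudogenes in the genome. In the thyroid, ribosomes of the follicular cells carry the synthesis of thyroglobulin, the large protein on which thyroid hormone is made.

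Letters of this kind were looked for around the annotated start in the RefSeq promoter table (assembly GRCm38.p6), which matched 56 of the 76 genes by symbol. The letters CTTTC occurred on the coding strand between 50 bases before and 50 bases after the start in 29 of the 56, or 51.8%, and in 12.5% of 26969 other promoters. A set of 6 genes is printed here because they span the response to age described further on, 3 with the largest and 3 with the smallest falls among the genes that hold CTTTC. Each line gives 30 bases, 5′ to 3′, with capitals for the unbroken run of C and T that holds CTTTC.
Rpl38 (chr11:114668568-114668597, plus strand): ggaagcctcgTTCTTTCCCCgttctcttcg
Rpl28 (chr7:4792952-4792981, plus strand): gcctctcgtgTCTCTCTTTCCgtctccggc
Rpl37 (chr15:5116631-5116660, plus strand): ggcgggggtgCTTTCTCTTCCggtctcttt
Rpl4 (chr9:64173361-64173390, plus strand): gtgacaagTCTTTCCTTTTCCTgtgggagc
Rpl13a (chr7:45128722-45128751, minus strand): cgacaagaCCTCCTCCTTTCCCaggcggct
Rpl5 (chr5:107900497-107900526, plus strand): gcctacagccaCTCTTTCTCacgtcgcttg
The runs are 10, 11 and 11 bases long in Rpl38, Rpl28 and Rpl37, and 14, 14 and 9 bases long in Rpl4, Rpl13a and Rpl5. Counted from the annotated start, their first base lies at -2 in Rpl38 and -3 in Rpl28, where the run spans the start. It lies at 29 in Rpl37, -18 in Rpl4, 3 in Rpl13a and -20 in Rpl5, where the run does not cover it and so is not shown to be the tract at the start of the mRNA. A second motif, CCGGAAG, the core that ETS-family factors such as GABPA bind, occurred on either strand between 250 bases before and 50 after the start in 22 of the 56 genes (39.3%) and in 9.06% of the other promoters. These matches describe letters in a window and not sites in use.

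Per kilobase of transcript, by the length column of the count tables, the highest mean levels were those of Rplp1, a stalk protein, at 822 CPM per kb, and of Rps15 and Rps24, both small-subunit proteins, at 551 CPM per kb each. The lowest were Rps15a at 37.0, Rpl13a at 6.50 and Rpl24 at 1.98 CPM per kb. That column sums all annotated exons of a gene. With the length of the principal transcript, Rpl10 (1062 CPM per kb) and Rps14 (862) led, and the lowest 3 were the same. Near-identical processed copies are annotated for this family, with 277 pseudogenes named as such and 226 of them holding counts, and the file headers show no option to count reads that map to several places. The low values of Rpl24 and Rpl13a, and levels between genes in general, are therefore uncertain.

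By library, the mean of log2(CPM + 1) over the 76 genes ran from 7.57 to 8.91. It was highest in the 2-month wild-type males numbered 4 to 6, at 8.43, 8.91 and 8.89. It was lowest in the 18-month males, at 7.76, 7.65 and 7.57. The other groups lay between: 8.10 ± 0.14 (SD, n = 3) in 2-month FAD4T males, 7.94 ± 0.29 in their wild-type controls numbered 1 to 3, 7.91 ± 0.04 in 2-month FAD4T females and 8.10 ± 0.14 in 2-month wild-type females. At 8 months the levels were 7.98 ± 0.09 in FAD4T males, 8.07 ± 0.10 in wild-type males, 7.80 ± 0.11 in FAD4T females and 8.10 ± 0.14 in wild-type females. Neighbouring groups in this order overlapped, except that the 3 young animals of the ageing pair lay above every other library. In whole tissue, fewer cells of a type and less RNA per cell cannot be told apart.

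**Figure D1:**
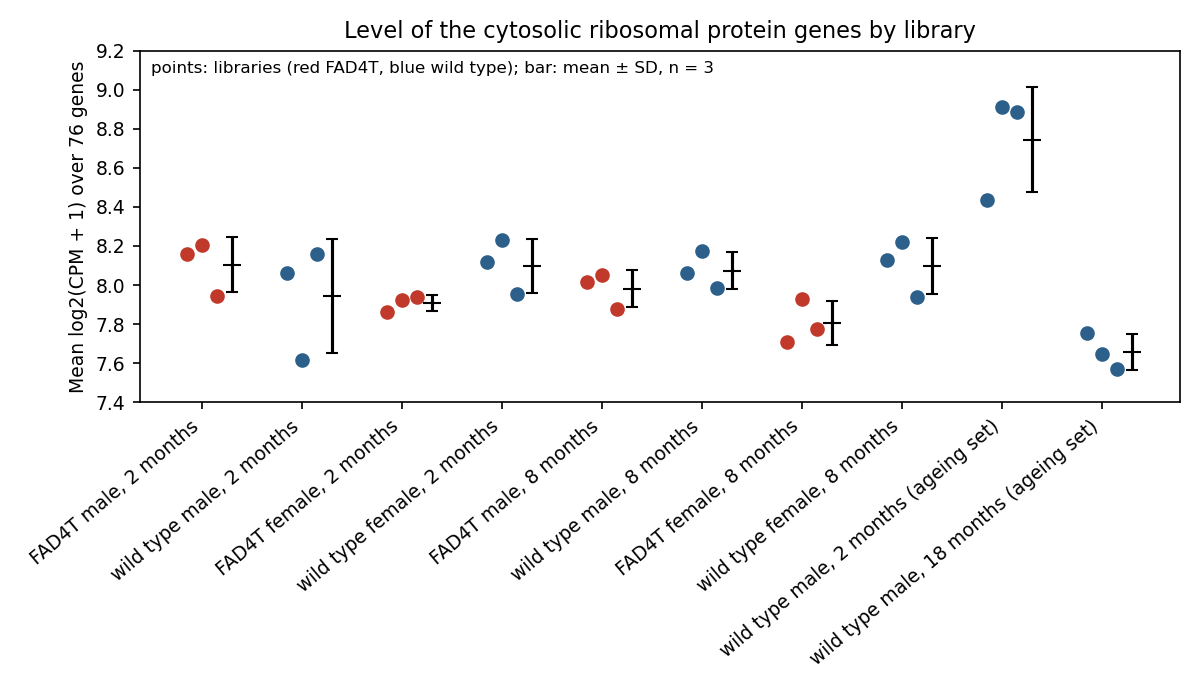
Mean log2(CPM + 1) over the 76 ribosomal protein genes in each of the 30 libraries, by group; points are libraries, and bars give the group mean ± SD (n = 3). The 2-month wild-type males numbered 4 to 6 sit between 8.43 and 8.91, above all other libraries, and the 18-month males between 7.57 and 7.76.

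The ageing pair asks how the thyroid of an 18-month male differs from that of a 2-month male. Ribosomal protein mRNAs were lower at 18 months across both subunits: 75 of the 76 genes fell and none rose at an adjusted p under 0.05 (edgeR quasi-likelihood test with Benjamini-Hochberg adjustment, 6 libraries), against 18.8% of all 16283 genes that fell and 17.1% that rose (35.9% in all). The median log2 fold change was -1.13 for the 76 genes and -0.01 for all genes. It was -1.12 over the 46 large-subunit genes, of which 45 fell, and -1.15 over the 30 small-subunit genes, all of which fell. DESeq2 also called 75 lower, with 19.2% of all genes called lower.

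The largest fall was that of Rpl41 (chr10:128548114-128549305, GRCm38, minus strand), which encodes the smallest ribosomal protein. It stood at 444, 813 and 841 CPM in the young males and at 242, 207 and 208 CPM in the old. The groups did not overlap, and the fold change was -1.69 on the log2 scale (SE 0.24, adjusted p = 0.0019, edgeR). Rpl36, of the large subunit, read 193, 310 and 312 CPM in the young and 95.0, 87.9 and 79.3 CPM in the old, a change of -1.65 (SE 0.20, adjusted p = 0.0012, edgeR). Among the other 8 of the 10 largest falls were Rps28 (-1.58), Rps29 (-1.56), Rpl38 (-1.54), Rpl37a (-1.49), Rpl28 (-1.48), Rps15 (-1.41), Rpl37 (-1.40) and Rpl32 (-1.38). Rpl38, a large-subunit protein known for its part in translating Hox mRNAs in the embryo, went from 141, 209 and 228 CPM to 70.5, 66.9 and 63.0 CPM.

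The 3 stalk genes, whose proteins recruit the translation factors, fell by unequal amounts. Rplp0, which anchors the stalk and is often used as a reference gene in PCR, read 941, 1445 and 1468 CPM in the young males and 786, 727 and 621 CPM in the old, with a log2 fold change of -0.87 (adjusted p = 0.013, edgeR). The young animal numbered 4 lay nearest to the old group. Rplp1 changed by -1.37 and Rplp2 by -1.32 on the log2 scale. Rplp1 read 611, 911 and 917 CPM against 327, 329 and 297 CPM, again without overlap.

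Rpsa, the small-subunit protein also known as the laminin receptor, fell by 1.12 on the log2 scale, from 826, 1123 and 1071 CPM to 512, 485 and 409 CPM. Of the 4 X-linked genes followed, Rpl39 fell by 1.27, Rpl36a by 1.12, Rpl10 by 1.0 and Rps4x by 0.97. Rpl10, one of the last proteins to join the large subunit, read 1075, 1569 and 1335 CPM in the young and 739, 636 and 639 CPM in the old. Rpl3, near the site of peptide bond formation, fell by 0.99, and Rpl22, an RNA-binding protein of the large subunit, fell by 0.90. The smallest falls that passed were in Rpl13a (-0.58, adjusted p = 0.044, edgeR) and in Rpl5 (-0.46, adjusted p = 0.030, edgeR), which carries the 5S RNA into the large subunit. Rpl24 was the exception, at 2.21, 1.18 and 1.33 CPM against 1.51, 0.904 and 0.972 CPM, with overlapping groups (-0.49, SE 0.43, adjusted p = 0.405, edgeR).

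All 3 old libraries lay below all 3 young libraries in 75 of the 76 genes, and in 26.4% of all genes. The genes with and without CTTTC near the start had the same median change, -1.12 in 29 genes and -1.12 in 27 genes. The plot of log2 fold changes by gene shows these values beside those of the comparisons that follow.

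**Figure D2:**
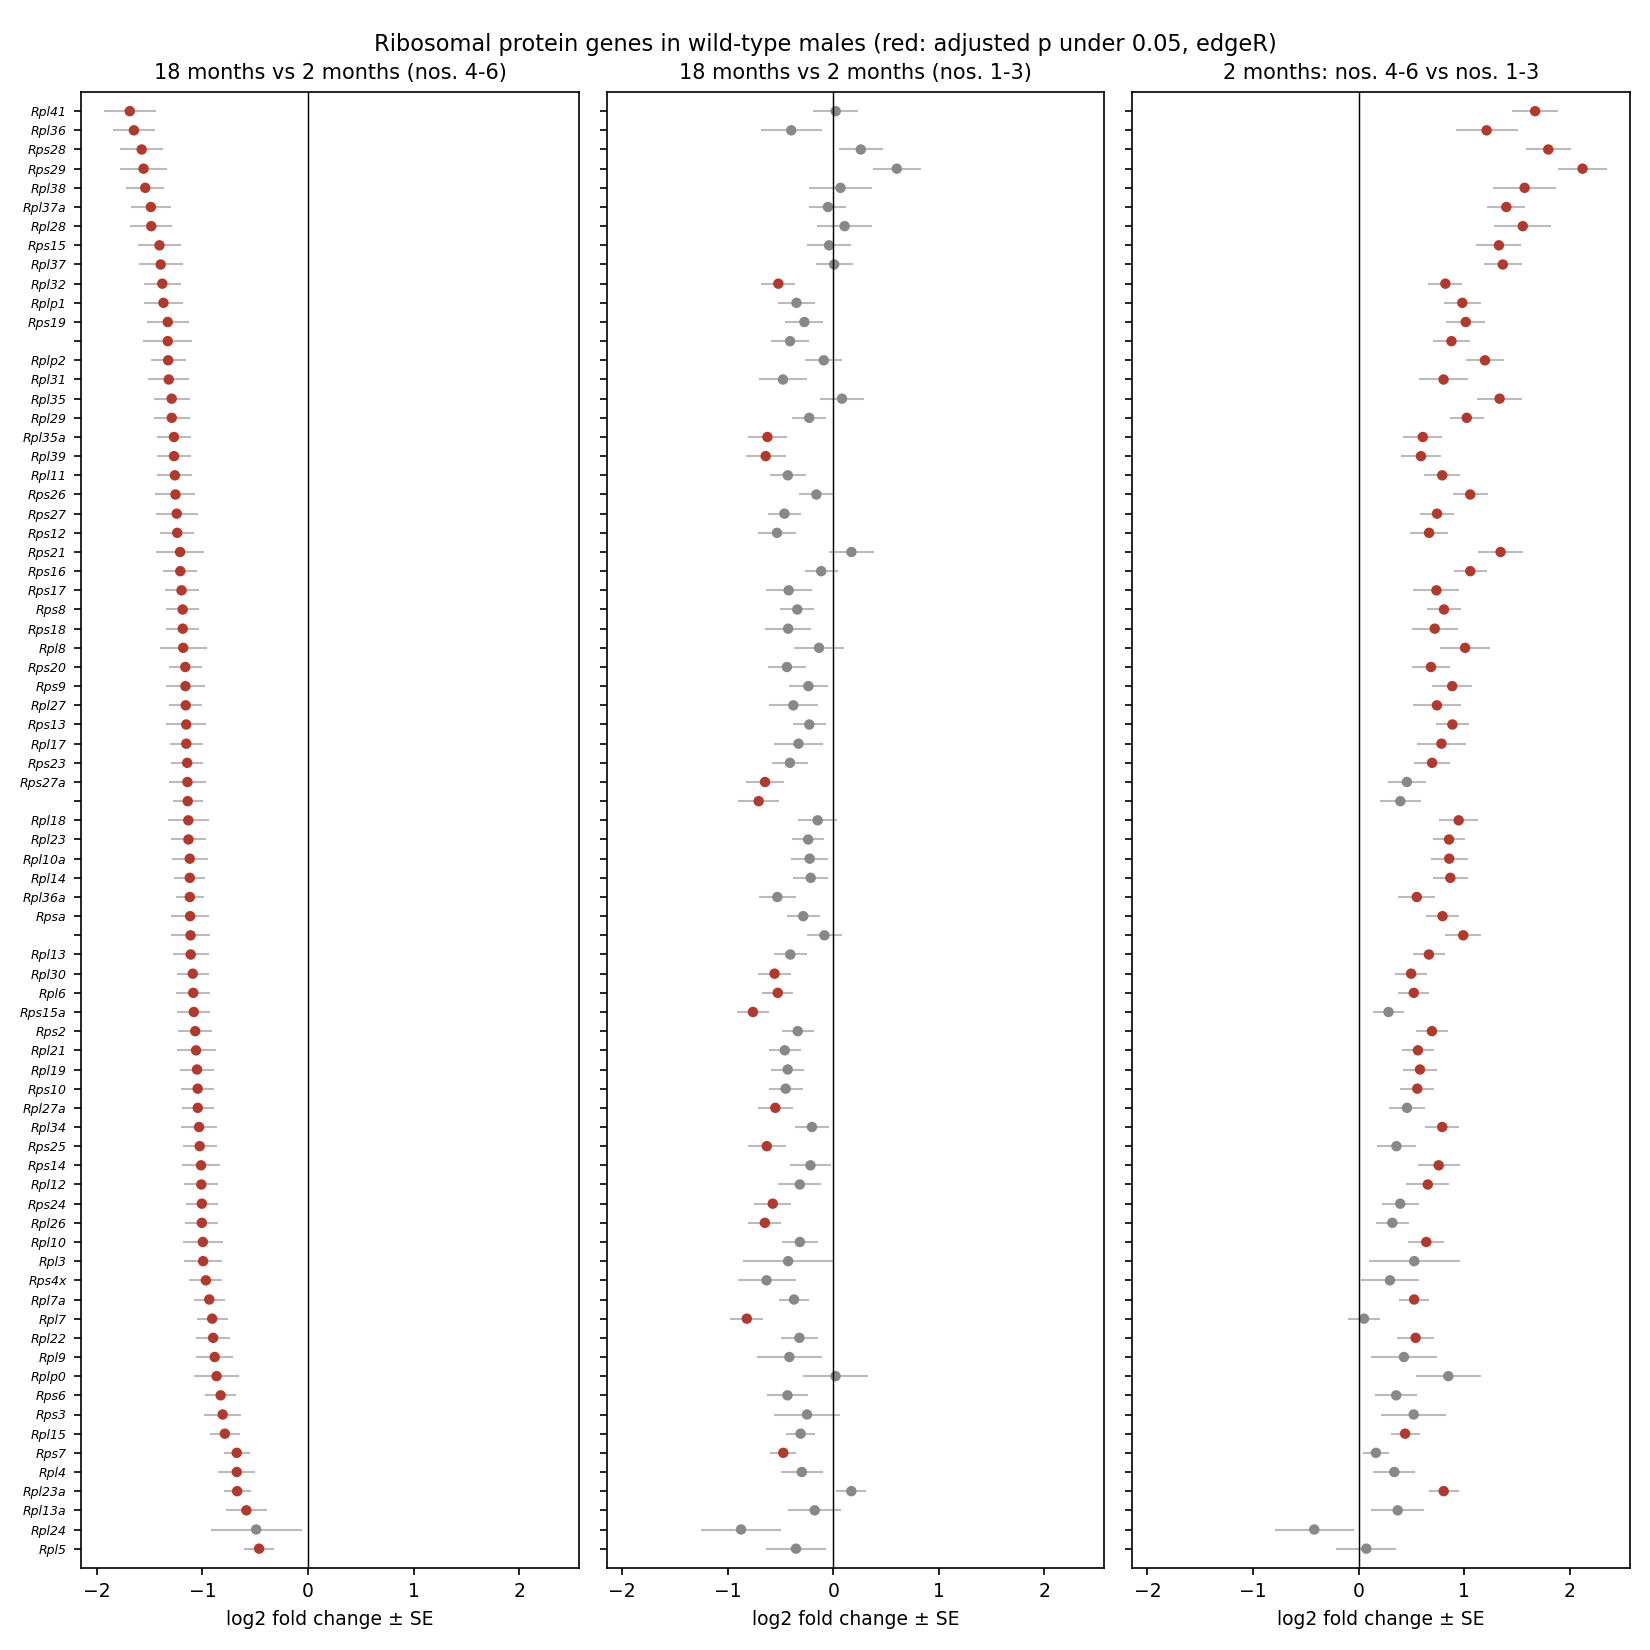
Log2 fold change (points) ± SE (bars) of each of the 76 genes in 3 comparisons: 18-month males against 2-month males numbered 4 to 6, 18-month males against 2-month males numbered 1 to 3, and numbers 4 to 6 against numbers 1 to 3; red marks adjusted p under 0.05 in edgeR, and a few genes are drawn without a name. The first panel has 75 falls, the second 14, and the third 57 rises.

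The series holds a second group under the same label as the young animals, the 2-month wild-type males 1 to 3. Against these, far fewer genes were lower at 18 months: 14 of the 76 fell and none rose (edgeR with Benjamini-Hochberg adjustment, one fit of all 30 libraries), against 4.97% of all genes that fell and 4.48% that rose. The median log2 fold change of the 76 was -0.35. The 18-month males belong to the ageing pair and numbers 1 to 3 to the FAD4T set. Age and set therefore cannot be told apart in this comparison. In the same fit, 71 fell against numbers 4 to 6, with a median of -1.10, and 33.1% of all genes were called in either direction. The count against numbers 1 to 3 depended on single libraries. It was 25 without the 2-month male number 2, 2 without number 1 and 2 without number 3. Without the 18-month males 1, 2 and 3 it was 7, 2 and 3. The medians of the 76 in these refits ran from -0.47 to -0.23. The share of all genes called in them is not given here, so these counts are not set against a background.

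The largest of the 14 falls was in Rpl7, a large-subunit protein, at 831, 630 and 879 CPM in numbers 1 to 3 and 481, 427 and 422 CPM at 18 months (-0.82, adjusted p = 0.0023, edgeR). The groups did not overlap. Rps15a read 236, 186 and 285 CPM against 151, 138 and 130 CPM, a change of -0.76. Others, chosen here because they passed, were Rpl26 (-0.65), Rps27a (-0.65), Rpl39 (-0.64), Rps25 (-0.63), Rpl35a (-0.62), Rps24 (-0.57), Rpl30 (-0.56), Rpl27a (-0.55), Rpl6 (-0.53), Rpl32 (-0.52) and Rps7 (-0.47). Rps27a is made as a fusion with ubiquitin. Rpl41 read 221, 150 and 275 CPM in numbers 1 to 3, which overlaps the 18-month values, and its log2 fold change was 0.02. Rps29, a zinc-finger protein of the small subunit, read 103, 57.8 and 96.3 CPM in numbers 1 to 3 and 133, 135 and 123 CPM at 18 months, a log2 difference of 0.60 in the direction opposite to that against numbers 4 to 6.

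Compared directly, the groups numbered 4 to 6 and 1 to 3, which carry the same sex, age, strain and genotype, also differed in these genes. In numbers 4 to 6, 57 of the 76 genes were higher and none lower (edgeR with Benjamini-Hochberg adjustment), against 10.2% of all 18799 genes higher and 11.5% lower. The median log2 difference was 0.74 for the 76 and -0.02 for all genes, DESeq2 called 61 higher with 13.1% of all genes called higher, and 56 did not overlap between the groups, with 18.8% of all genes higher without overlap. Rps29 differed most, at 251, 444 and 446 CPM in numbers 4 to 6 (log2 difference 2.12, SE 0.23, adjusted p = 1.84e-05, edgeR), followed by Rps28 (1.80), Rpl41 (1.67) and Rpl38 (1.57). Rpl28 (1.55), Rpl37a (1.40) and Rpl37 (1.37) were also higher. The differences of Rpl7 (0.05) and Rpl5 (0.07) did not pass the test, and that of Rpl24 was -0.42. These comparisons share the libraries numbered 4 to 6, so that they are not independent. A difference between the 2 sets of libraries cannot be told apart from one between the animals.

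Markers of other cell types moved with these groups. The mean log2(CPM + 1) of the adipocyte list was 7.23 to 7.47 in numbers 4 to 6, 5.73 to 6.39 in numbers 1 to 3 and 4.37 to 5.72 at 18 months, with no adipocyte marker at 0. Of its 11 genes, 8 fell from 2 to 18 months in the ageing pair (median -2.11) and 8 were higher in numbers 4 to 6 than in 1 to 3 (median 1.36). The skeletal muscle list stood at 8.41 to 11.13 in numbers 4 to 6, 8.08 to 10.76 at 18 months and 1.07 to 7.92 in numbers 1 to 3. Rpl3l, the paralogue of Rpl3 used in striated muscle, was 4.03 higher on the log2 scale in numbers 4 to 6 than in numbers 1 to 3. The part of these tissues in the ribosomal protein values was not tested.

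Transcript length moved with these differences as well. Across all genes tested, the log2 fold change from 2 to 18 months rose with the length column of the tables (Spearman's rho 0.39, 16283 genes of the same 6 libraries) and with the principal transcript's length (0.46). Within the 76 genes rho was 0.36 and 0.52. Ribosomal protein mRNAs are short: the median principal transcript had 803.5 bases, with a range of 345 to 5130. In the shortest of 10 equal bins of principal transcript length, up to 994 bases, 1576 other genes had a median log2 fold change of -0.76 and 43.1% of them fell. The 53 ribosomal protein genes of that bin had a median of -1.18, and 52 of them fell. In the next bin 14 ribosomal protein genes had a median of -1.06 beside -0.53 for the others, and the longest genes had a median of 0.45. The ribosomal protein genes thus lay below other genes of like length in both bins, by less than they lay below all genes.

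**Figure D3:**
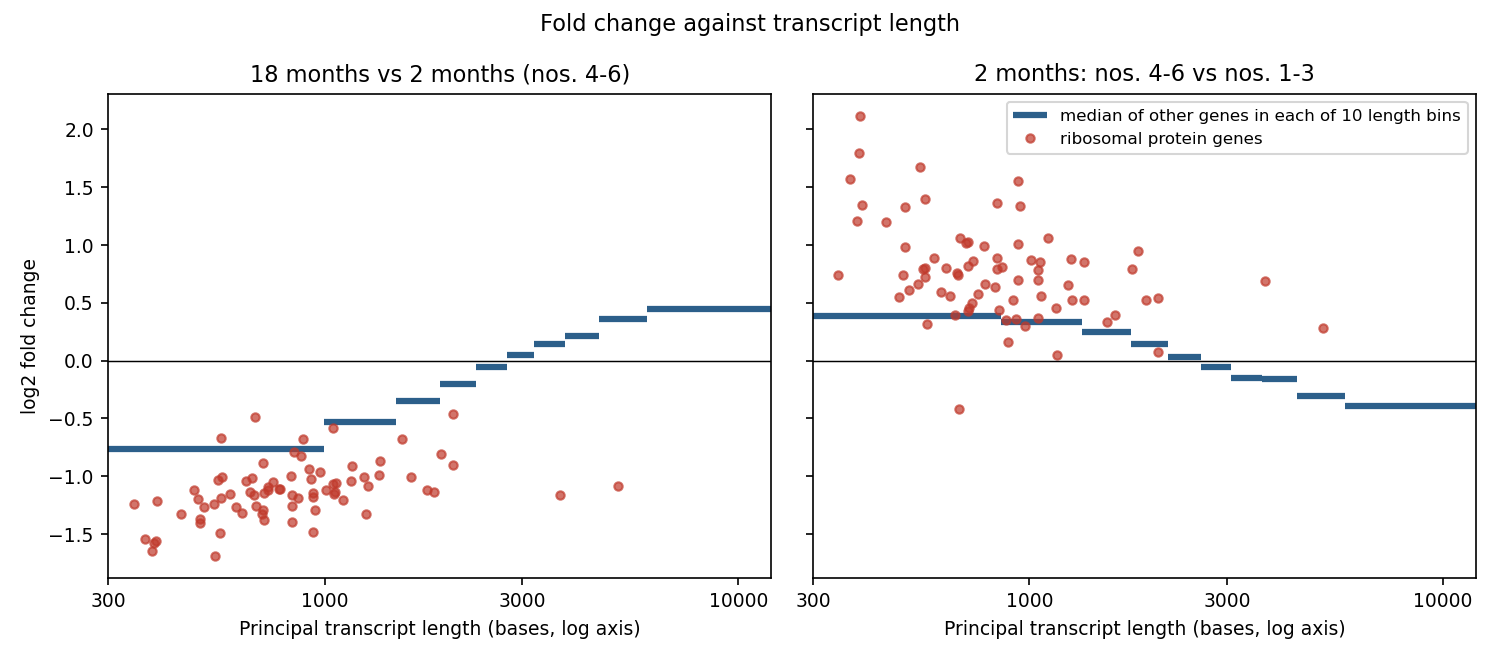
Log2 fold change of each ribosomal protein gene (points) against the length of its principal transcript in bases (log axis), with the median of the other genes in 10 bins of length (blue bars), for 18 against 2 months in the ageing pair and for the same-label groups numbered 4 to 6 against 1 to 3. The median of the other genes in the shortest bin is -0.76 in the first panel and 0.39 in the second.

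A fit that removed each library's trend of counts on length lowered the call. With the length column, 57 of the 76 genes fell between 2 and 18 months, with 11.4% of all genes called lower, and their median was -0.59. With the principal transcript, 28 fell, with 9.14% of all genes called lower, and the median was -0.33. Rps15a (-1.38) and Rps20 (-1.30) then led. They have the longest annotated principal transcripts of the 76, at 5130 and 3706 bases. The offset of a gene is set by that annotated length, so their place in this order depends on it. Whether their reads came from transcripts of that length was not tested. Rpl18 (-0.81), Rpsa (-0.77), Rpl28 (-0.73), Rpl22 (-0.66) and Rpl41 (-0.65) still fell in that fit, and so did Rps28 (-0.42, adjusted p = 0.0499, edgeR) and Rpl38 (-0.37). Rps29, Rps15, the 3 stalk genes, Rpl3, Rpl10, Rps4x, Rpl36a and Rpl39 no longer passed.

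The same offsets lowered the difference between the 2 groups of one label. Of the 76 genes, 33 were higher with the length column, with 6.59% of all genes called higher, and 19 with the principal transcript, with 5.92% called higher. The medians were 0.41 and 0.18. Rps7 was then lower with both lengths and Rpl26 with the principal transcript. In the shortest bin, up to 855 bases, other genes had a median of 0.39 beside 0.79 for 43 ribosomal protein genes.

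**Figure D4:**
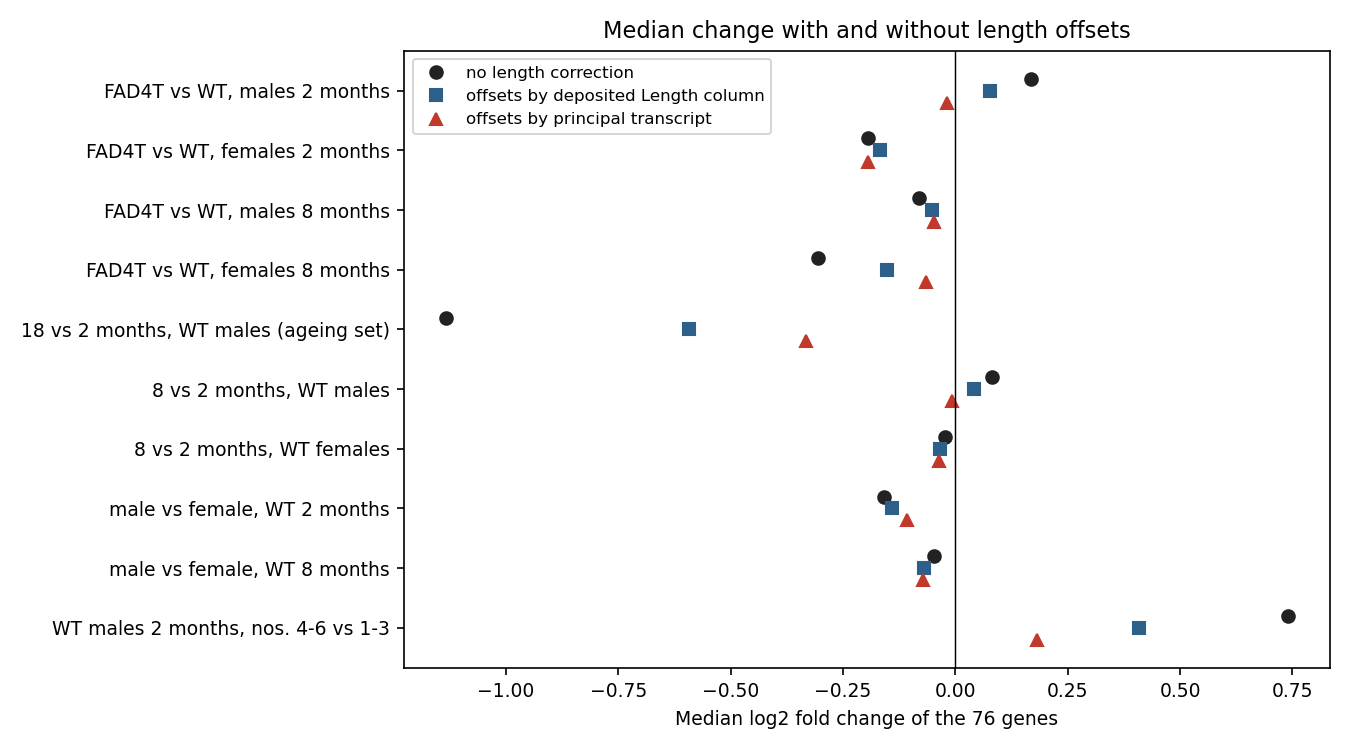
Median log2 fold change of the 76 genes in 10 comparisons without a length correction, with offsets from the length column and with offsets from the principal transcript's length. The fall in the ageing pair goes from -1.13 to -0.59 and -0.33, the same-label difference from 0.74 to 0.41 and 0.18, and the FAD4T difference in 8-month females from -0.31 to -0.07 with the principal transcript.

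Other gene groups of the ribosome and of growth were read beside these genes in the ageing pair. Of the ribosomal proteins of other names, Fau (-1.23), Rack1 (-0.86) and Rps3a1 (-0.73) fell. Of 6 paralogues tested, Rps4l (-0.99), Rpl22l1 (-0.94) and Rps27l (-0.92) fell, while Rpl3l (-0.98), Rpl36al (-0.34) and Rpl7l1 (0.04) did not pass. Among mitochondrial ribosomal proteins 61 of 77 fell (median -0.64), and among subunits of the respiratory chain 39 of 40 fell (median -1.25). Translation factors were divided, with 17 of 34 falling and 3 rising (median -0.50). Genes of ribosome biogenesis, which make and process ribosomal RNA, did not follow: 6 of 34 fell and 11 rose, with a median of 0.15. Of 43 ribosomal protein pseudogenes that passed the filter 21 fell. Counts of such copies and of their parents can exchange reads.

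Against numbers 1 to 3 the respiratory chain, mitochondrial ribosomal protein and translation factor lists also moved less, while that of ribosome biogenesis did not. There, 2 of 40 respiratory chain genes fell (median -0.16), 9 of the mitochondrial ribosomal proteins fell and 1 rose, 4 translation factors fell and 1 rose, and 1 gene of ribosome biogenesis fell while 9 rose (median 0.28). None of Fau, Rack1 and Rps3a1 passed. In numbers 4 to 6 against 1 to 3, 37 of the 40 respiratory chain genes were higher (median 1.04), as were 44 mitochondrial ribosomal proteins (median 0.47).

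The FAD4T comparisons ask how the genotype alters the thyroid within a sex and age. In these no ribosomal protein gene passed in any of the 4 pairs (edgeR, 24 libraries, adjusted p under 0.05), and DESeq2 called none either. Of all 18493 genes 0 passed in 3 of the pairs and 4 (0.0216%) in 8-month females. An unadjusted p under 0.05 was reached by 17 of the 76 genes in 2-month males, 11 in 2-month females, 0 in 8-month males and 15 in 8-month females, and by 2679, 3087, 335 and 862 of all genes. The members' medians, in the same order, were 0.17, -0.20, -0.08 and -0.31 on the log2 scale. Leaving out each library in turn gave 0.02 to 0.27, -0.28 to -0.13, -0.13 to -0.04 and -0.39 to -0.24, with the lowest value in 2-month males without wild-type number 2.

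In 8-month females the values of FAD4T mice lay lower for all 76 genes, though none by a margin that passed. Rpl37, of the large subunit, read 113, 134 and 116 CPM in FAD4T and 169.8, 184 and 132 CPM in wild type (log2 fold change -0.42, adjusted p = 1, edgeR). The FAD4T animal number 2 lay within the wild-type range. Rpl41 read 180.0, 197 and 177 CPM against 282, 291 and 218 CPM (-0.51), without overlap, and Rps27 had a log2 fold change of -0.37. In 40 of the 76 genes every FAD4T library lay below every wild-type library, against 7.28% of all genes. Skeletal muscle markers moved with the genotype here, at a list level of 1.27 to 1.74 in the FAD4T libraries against 5.32 to 8.55 in their controls, and all 40 respiratory chain genes had negative values (median -0.43, none passing). Log2 fold changes also rose with principal transcript length in this pair, with rho 0.35 over all genes and 0.49 over the 76, and the median of the 76 was -0.07 once each library's length trend was removed. The part of muscle in this difference was not tested.

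In 8-month males 70 of the 76 values were negative, and 16 genes lay lower in FAD4T without overlap, against 5.46% of all genes. Rps19, a small-subunit protein whose human counterpart is the gene most often mutated in Diamond-Blackfan anaemia, read 290.1, 279 and 254 CPM in FAD4T and 313, 346 and 299 CPM in wild type (-0.22, adjusted p = 1, edgeR). Rplp1 (-0.20) and Rps21 (-0.24) had the next smallest p-values.

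In 2-month females 61 values were negative, with 10 genes lower (4.14% of all genes) and 1 higher (5.79% of all genes) without overlap. Rps6, the target of the S6 kinases, read 229.7, 236 and 387 CPM in FAD4T and 332, 466 and 426 CPM in wild type (-0.52). FAD4T animal number 3 stood apart from the other two. Without it, 14 of the 76 genes passed as lower and Rpl24 as higher (1.26), beside 15.8% of all genes in either direction. The lowest was Rpl3 (-1.71). The share of all genes that passed as lower is not given here, so the 14 are not read as a result about the 76. Rpl24 read 2.90, 4.04 and 2.75 CPM in FAD4T and 2.03, 1.39 and 0.906 CPM in wild type with all libraries, a fold change of 1.16 (adjusted p = 0.184, edgeR) at a level where few reads were counted. The thymocyte list stood at 0.59 to 4.42 in these FAD4T females and at 0.42 to 1.71 in the wild type, with the highest levels in FAD4T animals 1 (3.89) and 2 (4.42), and its part was not tested. Thymus lies close to thyroid in the mouse. Thyroglobulin took 8.01 and 4.64% of counts in FAD4T animals 1 and 2 and 19.3% in animal 3. The wild-type shares were 5.58, 18.7 and 19.1%. Wild-type female 1, with the lowest of these, had a liver list level of 7.17, against 0.85 and 0.88 in females 2 and 3. In the FAD4T females it was 0.70 to 1.57. Her skeletal muscle list stood at 8.48, against 5.33 and 5.82 in wild-type females 2 and 3. The part of these differences was not tested either.

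In 2-month males 54 values were positive, and 2 genes lay higher without overlap, against 6.42% of all genes. Rpl12 read 316, 465 and 406 CPM in FAD4T and 324, 202 and 289 CPM in wild type (0.55), Rpl36 had a difference of 0.79 and Rpl28 one of 0.67 (adjusted p = 0.343 for each of the 3, edgeR). FAD4T number 1 lay within the wild-type range for Rpl36, at 132 CPM beside 223 and 234.5 CPM in numbers 2 and 3. Those 2 libraries also stood apart in their thymocyte list level, at 5.12 and 3.21 against 0.51 to 0.78 in the other 4 libraries of the pair, and in their thyroglobulin share, at 8.86 and 6.68% of counts against 12.1 to 21.1%. The part of either in the difference was not tested by itself. With offsets from the principal transcript's length the median of the 76 turned to -0.02. In 3 FAD4T pairs some libraries had a thymocyte list level above 2, a cut chosen after seeing the data. Without them the medians of the 76 were 0.19 in 2-month males, -0.20 in 2-month females and -0.10 in 8-month males. That left 1 FAD4T library in each sex at 2 months, assumed to vary like the other groups.

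No test of how the FAD4T effect differs between sexes or between ages called a ribosomal protein gene, nor any other gene (edgeR), and 2, 0, 6 and 1 of the 76 had an unadjusted p under 0.05, beside 744, 369, 922 and 1520 of all 18493 genes. DESeq2 called none of the 76. The medians of the 76 were 0.37 and 0.22 for males minus females at 2 and 8 months, and -0.23 and -0.12 for 8 minus 2 months in males and females, the last of which turned to 0.10 with principal transcript offsets. The smallest p-values belonged to Rps27 (0.51), Rpl7a (0.37), Rpl12 (-0.66) and Rpl24 (-1.42).

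Between 2 and 8 months the wild-type levels changed little in females, and in males when the 2-month animals were numbers 1 to 3. The mean level of the 76 genes was 8.07 in 8-month males and 7.94 in those 2-month males. It was 8.74 in the young males of the ageing pair, which carry the same label. No test of the 8-month males against that group is reported here. In males numbered 1 to 3 at 2 months the median of the 76 was 0.08, none of the 76 passed in edgeR and 8 had an unadjusted p under 0.05, beside 2158 of all 18493 genes (0.422% of all genes were called higher and 0.27% lower, 0.692% in all), and 7 lay higher at 8 months without overlap, against 11.6% of all genes. Rps29 read 103, 57.8 and 96.3 CPM at 2 months and 172, 154.5 and 143 CPM at 8 months (0.86, SE 0.22, adjusted p = 0.070, edgeR). The groups did not overlap, and DESeq2 called it (adjusted p = 0.0091), as did edgeR with length offsets from the length column (adjusted p = 0.0059) and with the compared groups fitted alone (adjusted p = 0.047). Rps27 (0.40) and Rps28 (0.53) came next. In females the median was -0.02, none of the 76 passed in edgeR or DESeq2 and 0 had an unadjusted p under 0.05, beside 1581 of all genes (0.205% of all genes higher and 0.0487% lower, 0.254% in all), and Rps19 (-0.35), Rps29 (0.41) and Rps24 (0.35) had the smallest p-values.

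Between the sexes of wild-type mice none of the 76 passed in edgeR, at 2 months (median -0.16 for males minus females, 0.0757% of all genes called, 0.0379% in each direction) or at 8 months (median -0.05, 0.27% called, 0.0919% higher and 0.178% lower). DESeq2 called none of the 76 at either age, and 0 had an unadjusted p under 0.05, beside 1237 and 941 of all genes at 2 and 8 months. Of the X-linked genes, Rpl10 at 8 months read 930.3, 982 and 883 CPM in males and 1022, 966 and 860.1 CPM in females, with overlapping groups and a log2 difference of -0.04. Rps4x, Rpl36a and Rpl39 differed by -0.03, -0.05 and -0.11 at that age. The smallest p-values were those of Rpl12 (-0.35), Rps19 (-0.29) and Rpsa (-0.25) at 2 months, and of Rpl13a (-0.47), Rpl7a (-0.16) and Rps15a (-0.16) at 8 months.

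The 76 genes shared much of their movement but did not move as one block. Correlation with the mean of the other members over the 30 libraries was highest in Rpl13 (0.98). It was lowest in Rpl24 (-0.01), Rpl5 (0.33) and Rpl3 (0.38). After the common level of each library was removed, the largest spread over the 30 libraries was in Rpl3 (SD 0.605 on the log2 scale), Rpl24 (0.494) and Rpl5 (0.423), and the smallest in Rps23 (0.083), Rpl23 (0.082) and Rpl13 (0.061). One component held 59.7% of this variance and a second 24.4%. On the first, Rpl3, Rpl9, Rplp0, Rps3, Rpl5, Rps4x and Rpl8 were low, and Rpl36, Rpl17, Rpl31, Rpl28, Rpl27 and Rps18 high, in the same 5 libraries. These were the 2-month FAD4T males 2 and 3, the 2-month FAD4T females 1 and 2 and the 2-month wild-type female 1.

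Those 5 libraries were also the 5 with the lowest share of thyroglobulin counts, 4.64 to 8.86% against 10.4 to 27.0% in the other 25. In them Rpl3 read 177 to 312 CPM, against 439 to 1107 CPM in the others. Rplp0 read 316 to 502 CPM against 594 to 1468 CPM. Rps3, which lines the channel where mRNA enters, read 213 to 347 CPM against 389 to 813 CPM. Rpl5 and Rpl8 were likewise lower without overlap, so that 5 of the 76 genes were lower (6.84% of all genes), a share near the background. The mean level of the 76 was not set apart, at 7.86 to 8.21 beside 7.57 to 8.91. Mitochondrial counts took 4.07 to 6.72% in these libraries and 1.94 to 5.22% in the others. The translation factor list stood lower (7.04 to 7.37 against 7.60 to 8.07), the thyroid list at 7.35 to 8.06 against 7.86 to 9.05, and the thymocyte list at 1.71 to 5.12 against 0.42 to 3.14. These genes were noticed in the data and carry no test.

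**Figure D5:**
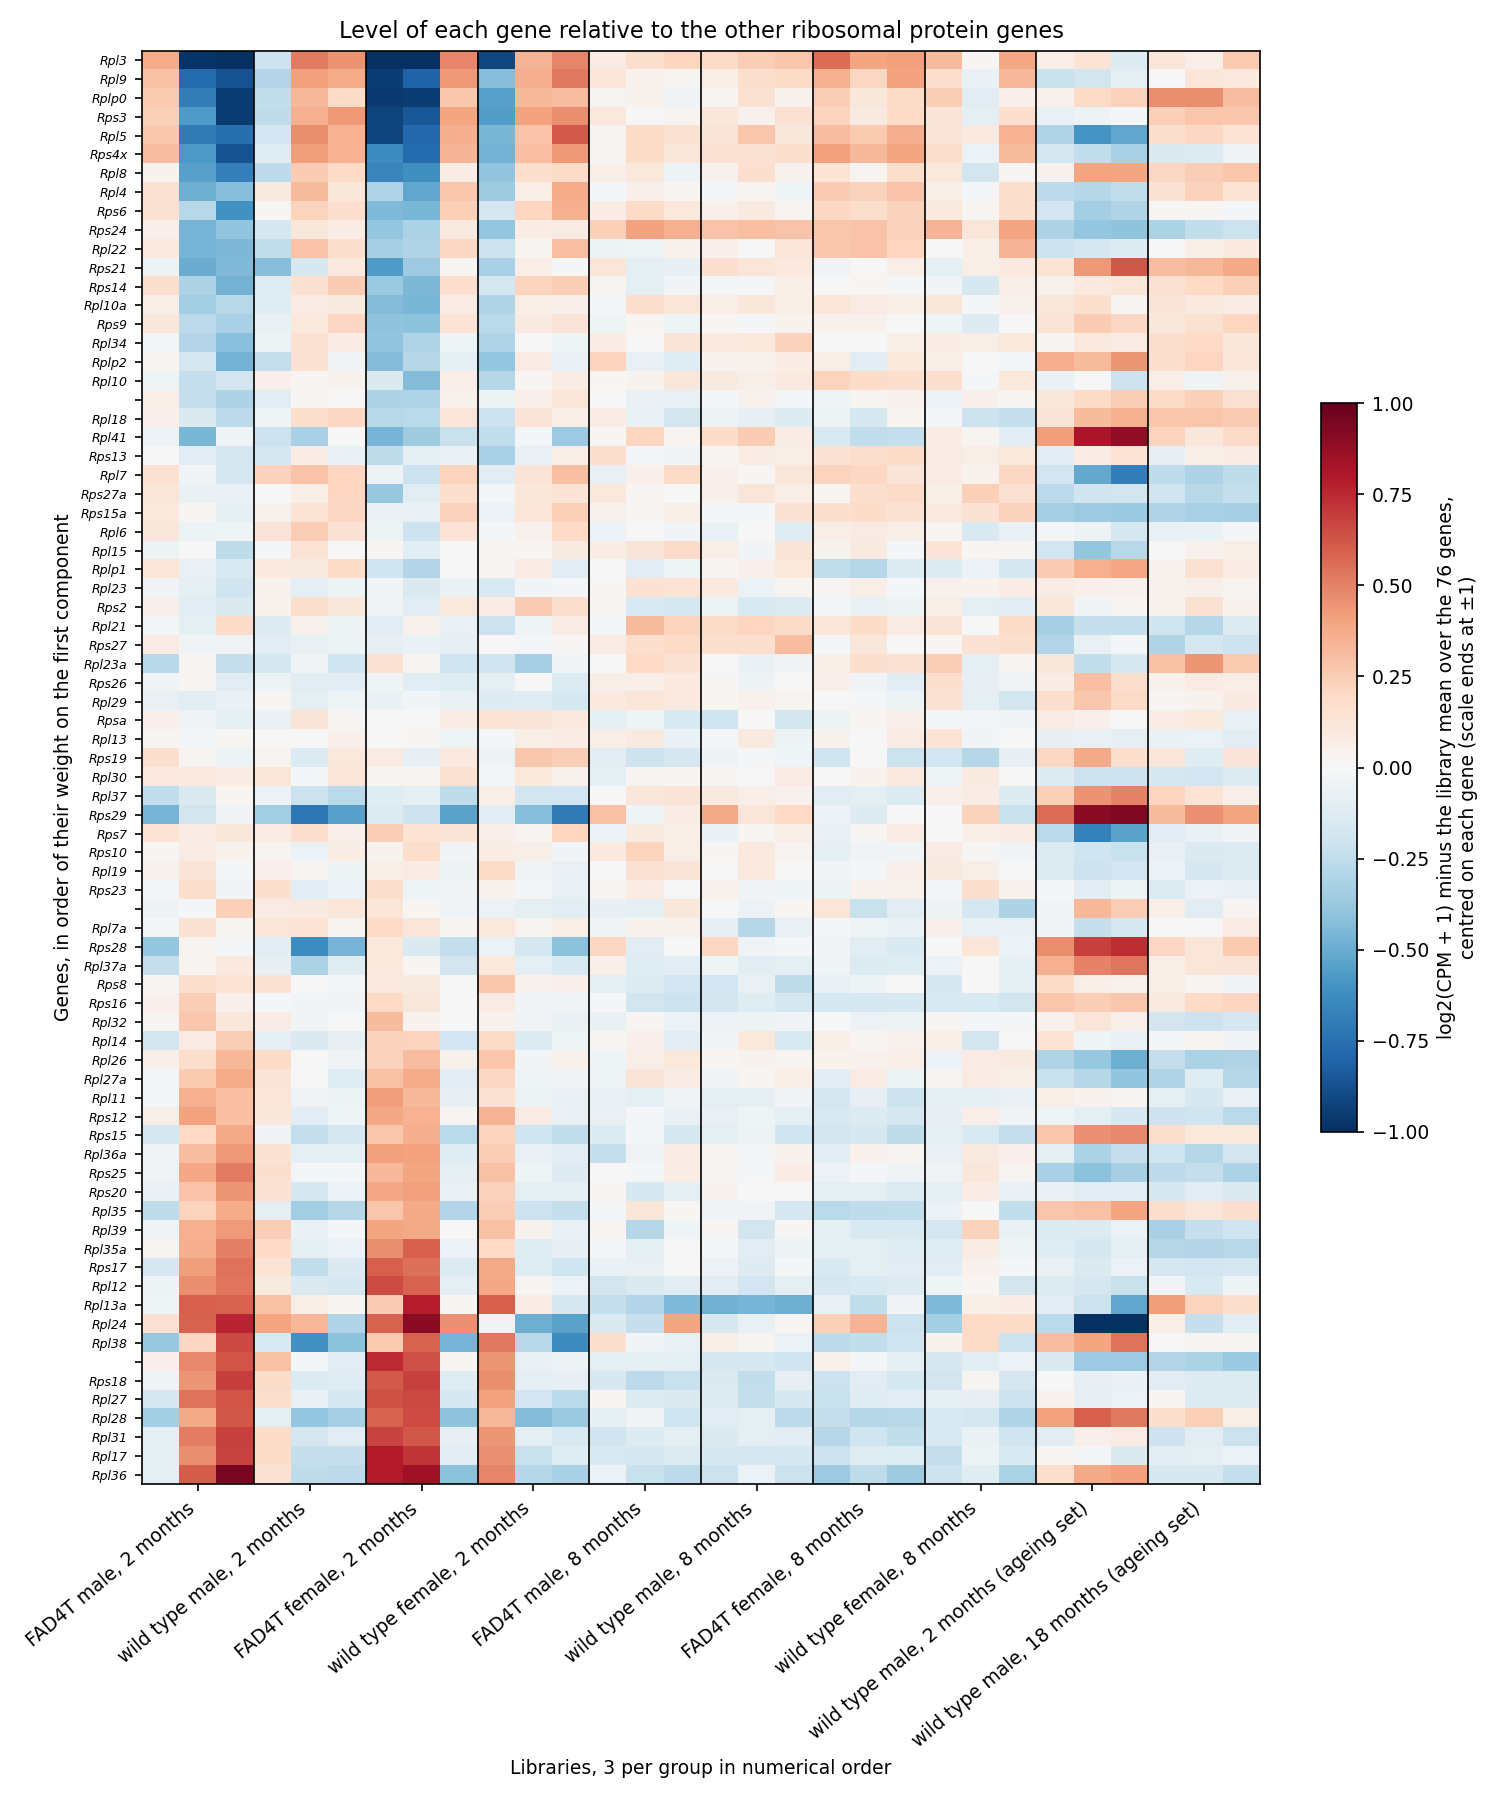
Level of each of the 76 genes in each of the 30 libraries relative to that library's mean over the 76, on the log2(CPM + 1) scale and centred per gene, a few genes without a name; genes are ordered by their weight on the first component, which holds 59.7% of the variance. Rpl3, Rpl5, Rplp0 and Rps3 are low in 5 of the 2-month libraries, where Rpl36 is relatively high.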

How the data were processed

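Deposited counts of reads per gene were used, 1 table per library. Per the file headers, featureCounts 1.6.0 counted fragments over exons of the Ensembl 88 annotation (GRCm38) without strand or multi-mapping options, from alignments named for STAR. The submitters' processing notes name HISAT2 2.0.4 and GRCm39 instead; the discrepancy was not resolved here. No 2 libraries were identical.

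The FAD4T set (24 libraries), the ageing pair (6) and all 30 libraries were each fitted in edgeR 4.0.16 (R 4.3.3; TMM scaling, filterByExpr with a minimum count of 10, robust quasi-likelihood fit, a mean per group, Benjamini-Hochberg adjustment over all genes tested at 0.05). Levels are CPM scaled by TMM over the 30 libraries, with a pseudocount of 1 on the log2 scale. SEs come from the fold change and F statistic. The fits were tested on simulated data. Length offsets are each library's lowess trend (span 0.3) of log counts on log2 length. Sequences are from RefSeq (GRCm38.p6).

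Results of some genes are not reported here. The genes, lists and alternatives were chosen with earlier results of these data known. Named genes are up to 10 falls and 10 rises by size among those passing in a FAD4T or ageing comparison, 4 of each elsewhere, the 3 smallest p-values where none passed, 12 always named and the extremes of level and spread. FAD4T and wild-type libraries of the same title number matched best for every number in 8-month males alone (correlations of deviations 0.41, 0.40 and 0.51). The titles give no pairing. Alternatives were DESeq2 1.42.0, other scalings, filters, length offsets, a replicate block and leaving out each library.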

Additional observations from a re-analysis of the deposited data

How the results depend on the processing

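With principal transcript offsets the medians of the 76 genes were -0.02 and -0.07 for FAD4T in 2-month males and 8-month females. For differences in the FAD4T effect they were 0.16 and 0.02 for males minus females at 2 and 8 months. They were -0.02 and 0.10 for the FAD4T effect at 8 minus 2 months in males and females. The ageing pair's count of falls went from 75 to 28 with those offsets and to 14 against numbers 1 to 3, and its median to -0.59 (length column), -0.33 (principal transcript) and -0.35 (numbers 1 to 3). For the same-label groups, 33 and 19 genes rose and 1 and 2 fell with the 2 kinds of offset, with medians of 0.41 and 0.18. In 8-month wild-type males against 2-month males numbered 1 to 3, 1 gene, Rps29, rose with DESeq2, with either offset and with the compared groups alone.

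Against numbers 1 to 3 the sign changed for Rpl41 (0.02), Rps28 (0.26), Rps29 (0.60), Rpl38 (0.07), Rpl28 (0.11), Rpl37 (0.01) and Rplp0 (0.02). In the same-label groups it changed for Rps4x (-0.09 with the length column, -0.22 with the principal transcript), Rpl36a (-0.19) and Rpl39 (-0.07, both with the principal transcript). Relative to the mean of the 30 libraries, group levels moved to 0.40 and 0.23 for numbers 4 to 6, -0.21 and -0.11 for 18 months, -0.09 and 0 for 8-month FAD4T females with the 2 offsets, and -0.07 for 2-month FAD4T females with the median in place of the mean. Over the named genes, 1041 of 1117 values under the alternatives kept their sign and their side of the threshold.

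Leaving out each library gave 71 to 74 falls and medians of -1.27 to -1.0 in the ageing pair, 38 to 62 rises and medians of 0.62 to 0.89 in the same-label groups, and 2 to 25 falls and medians of -0.47 to -0.23 for 18 months against numbers 1 to 3. In 2-month females it gave 0 to 14 falls and 0 to 1 rises, the highest without FAD4T animal 3. Only for that last refit is a share of all genes given here, in either direction. The other counts are not set against a background. The replicate block changed no call of the 76: with it the FAD4T medians were 0.16, -0.19, -0.08 and -0.30 in 2-month males, 2-month females, 8-month males and 8-month females. The block was not run for the ageing pair and the same-label groups, which share too few numbers. Causes were not tested. The length offsets came from these same libraries and would also remove a real shift of short genes. With 3 libraries a group, small differences may go uncalled.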
